A study of Arabidopsis thaliana with 47 samples.

Results

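Across 22 ChIP-seq and 9 RNA-seq libraries of Arabidopsis thaliana, 1620 places were followed where MORC7 was bound on the chromosome arms, away from coding genes and from their promoters. Peaks of MORC7-FLAG ChIP-seq from 3 wild-type lists were kept where the q value was below 0.01 and the fold enrichment over background above 2, overlapping peaks were merged, and an interval with a peak in at least 2 of the 3 lists was counted as a MORC7 region. The members are those whose midpoint lay outside every protein-coding gene of the TAIR10 genome, not within 1 kb upstream of one, and over 3 Mb from the centre of its chromosome. They are 1620 of 6424 MORC7 regions (25.2%), and 37.4% of the 4330 regions on the arms. The other regions served for comparison, 1627 upstream of a coding gene and 1083 inside one on the arms, and 2094 around the centromeres.

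MORC proteins are GHKL-type ATPases that compact chromatin and repress transposons and methylated genes. In plants they work with RNA-directed DNA methylation (RdDM), in which Pol IV (its largest subunit is NRPD1) starts the production of small interfering RNAs, and Pol V (largest subunit NRPE1) makes scaffold transcripts that guide DNA methyltransferases to matching sequence. DMS3 is part of the DDR complex, which loads Pol V onto chromatin, and MET1 copies CG methylation after replication. On the arms RdDM acts mainly at short transposons and repeats scattered between genes, the kind of sequence that regions away from promoters can hold.

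All plants were of the strain Columbia-0, and the labels give floral tissue of plants aged 5 to 6 weeks. MORC7-FLAG plants carry pMORC7::MORC7-3xFLAG and MORC4-FLAG plants pMORC4::MORC4-3xFLAG, each under its own promoter in a line that lacks its own MORC gene, so that "wild type" in these libraries means an intact RdDM pathway. Per the methods of the study, the MORC7-FLAG transgene was brought into the RdDM mutants by crossing. The F2 or F3 plants used could be heterozygous or homozygous for it. Mutant and wild-type libraries can therefore differ in tag dose and generation, and the part of these was not tested. Whether the mutant plants kept an intact MORC7 gene is not stated there. Libraries of MORC7-FLAG came from plants with intact RdDM (3), nrpd1-4 (2), nrpe1-11 (2), nrpd1-4 nrpe1-11 (2), dms3-4 (3) and met1 (1, replicate 2), and those of MORC4-FLAG from 2 ChIPs. FLAG ChIP of untagged Columbia-0 plants (2) and HA ChIP of MORC7-FLAG plants (1) served as controls. MORC7-FLAG plants with UBQ10::ZF108-DMS3-3xHA, DMS3 fused to an artificial zinc finger under a strong general promoter, gave 1 HA and 1 FLAG library. Pol II was measured in 1 wild-type library and 1 library of the sextuple mutant hex (morc1 morc2 morc4 morc5 morc6 morc7). RNA-seq covers libraries labelled wild type, nrpe1 and hex (3 each). Nothing states whether libraries of 1 genotype came from separate plants, so p-values measure the spread between libraries only, and the genotypes of the ChIP libraries rest on their labels, since peak lists hold no reads of the mutated genes.

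The lists differed in form and length. Between 4048 and 8259 peaks were kept for each MORC7 library of wild type and mutants, 9196 for MORC7 in the ZF108-DMS3 plants, 1766 and 7855 for MORC4 replicates 1 and 2, 230 and 965 without a tag, and 8 in the HA control. In 3 lists, wild-type replicate 1 and dms3 replicates 2 and 3, some entries were repeated and the smallest −log10 q was 2.00. The sequencing depth behind a list is unknown, so a member without a peak in a library can be a member whose peak missed the threshold there. Dates in the peak names join wild-type replicate 3 with both nrpd1 libraries, nrpd1 nrpe1 replicate 1 and 1 library without a tag, and join MORC4 replicate 1 with both Pol II libraries. The largest such group, of 6 lists, holds nrpe1 replicate 2, dms3 replicate 1, met1, both libraries of the ZF108-DMS3 plants and the HA control. Libraries of 1 date were counted singly in the tests below, and the part of the date in them was not tested.

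The sequence at 5 members is shown first, since each stands for 1 of the patterns that follow. Each line holds 300 bases of the TAIR10 genome (RefSeq TAIR10.1, forward strand, 5′ to 3′) around the summit of the highest wild-type MORC7 peak, with CG dinucleotides, the sites that MET1 maintains, in capitals. R0874 (window chr3:16700082-16700381) was among the 3 members with the highest mean enrichment in wild type, R0895 (chr3:17417736-17418035) among the 3 highest in met1, R1444 (chr5:16681315-16681614) among the 3 highest in both MORC4 libraries, and R0961 (chr3:21004462-21004761) among the 3 highest for Pol II. R0564 (chr2:10776497-10776796) had a peak in every RdDM mutant library and none in met1. The windows differ in base composition, from 22.7% GC in R0874 to 40.3% in R0961, and in CG dinucleotides, from 2 in R1444, where runs of C and T fill most of the window, to 12 in R0564.
R0874: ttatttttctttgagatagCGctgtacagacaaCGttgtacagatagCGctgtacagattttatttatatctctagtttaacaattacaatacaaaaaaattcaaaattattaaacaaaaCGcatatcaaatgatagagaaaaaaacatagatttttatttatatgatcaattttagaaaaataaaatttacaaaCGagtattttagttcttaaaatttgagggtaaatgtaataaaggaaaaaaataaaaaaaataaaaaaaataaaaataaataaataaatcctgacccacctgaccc
R0895: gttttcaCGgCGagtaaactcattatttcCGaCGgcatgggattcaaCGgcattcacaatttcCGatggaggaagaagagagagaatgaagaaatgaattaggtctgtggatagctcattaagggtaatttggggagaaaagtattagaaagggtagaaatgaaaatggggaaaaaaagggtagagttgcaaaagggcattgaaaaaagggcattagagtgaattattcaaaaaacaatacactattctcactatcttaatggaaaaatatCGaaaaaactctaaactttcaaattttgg
R1444: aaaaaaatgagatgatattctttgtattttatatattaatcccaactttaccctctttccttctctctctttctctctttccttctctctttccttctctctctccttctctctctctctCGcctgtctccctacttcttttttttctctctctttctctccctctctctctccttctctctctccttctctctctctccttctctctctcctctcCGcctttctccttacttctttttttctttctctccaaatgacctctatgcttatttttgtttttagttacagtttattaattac
R0961: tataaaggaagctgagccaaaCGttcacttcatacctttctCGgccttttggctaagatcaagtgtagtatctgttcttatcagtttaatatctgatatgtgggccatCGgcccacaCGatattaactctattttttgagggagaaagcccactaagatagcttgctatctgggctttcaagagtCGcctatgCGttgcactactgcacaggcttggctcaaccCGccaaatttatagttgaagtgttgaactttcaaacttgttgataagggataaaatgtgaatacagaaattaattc
R0564: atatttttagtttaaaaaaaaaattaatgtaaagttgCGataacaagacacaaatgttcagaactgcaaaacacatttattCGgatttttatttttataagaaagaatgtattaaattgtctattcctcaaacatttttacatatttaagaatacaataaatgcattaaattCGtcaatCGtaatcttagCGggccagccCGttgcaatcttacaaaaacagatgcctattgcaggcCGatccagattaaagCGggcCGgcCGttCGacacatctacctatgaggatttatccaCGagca

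The members lay between genes and mostly in sequence with no annotation. The midpoint of 1460 of them (90.1%) fell in no annotated gene, 102 (6.30%) in a non-coding RNA gene, 54 (3.33%) in a pseudogene and 4 in a gene of a small RNA or other kind. Pseudogenes take 10.7% of the arm sequence away from genes and promoters and non-coding RNA genes 4.21%. Transposons are not part of the annotation used, so their share was not counted. The nearest coding gene turned its 3′ end to the member in 57.0% of cases, beside 57.4% of the bases of that sequence, and the median distance to it was 1248 bp. Only 48 members (2.96%) were over 5 kb from a coding gene, and 408 (25.2%) touched one at their edge. The 17.05 Mb of such sequence held 95.02 members per Mb, against 115 regions per Mb upstream of genes, 18.7 in genes and 69.8 around the centromeres. Chromosomes 1 to 5 held 434, 268, 304, 241 and 373 members.

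Members were of medium width and of medium GC content among the MORC7 sets. Their median width was 962.5 bp, with quartiles of 610 and 1486 bp and a range of 271 to 12785 bp, against medians of 873 bp upstream, 878 bp in genes and 1625.5 bp around the centromeres. Median GC was 32.04%, beside 32.9% upstream, 35.2% in genes and 31.6% around the centromeres. Members had medians of 1.91 CG dinucleotides per 100 bp, 3.39 CHG sites and 24.3 CHH sites (H is A, C or T, counted on both strands). Arm windows of the same kind without a MORC7 region had medians of 30.8% GC, 1.87 CG, 3.22 CHG and 23.8 CHH, which lie within the quartiles of the members. Sequence found more than once in the nuclear genome, counted in words of 31 bases, made up a median of 0.922% of a member and 7.05% of a pericentromeric region. The median was 0 upstream of genes, in genes and in the arm windows without a MORC7 region. No repeated word was found in 44.9% of members, 54.1% of upstream regions, 67.4% of genic regions and 65.6% of those windows. Since the authors kept only reads that match 1 place perfectly, peaks at repeated sequence rest on the unique bases around it.

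All members had a peak in at least 2 wild-type lists by the rule, and 709 (43.8%) had one in all 3. This share was 40.8% upstream of genes, 42.7% in genes and 42.8% around the centromeres. Wild-type replicate 2 lacked a peak at 618 members, replicate 3 at 266 and replicate 1 at 27. At the edge of the rule, the second-highest fold enrichment was 2.0002 in the lowest member and 1.9998 in the highest region left out, the member nearest a centre lay 3.003 Mb from it and the nearest region beyond 2.999 Mb, and the member nearest upstream of a gene start lay 1005 bp from it against 1000 bp for the farthest upstream region. Without a tag, 2 members (0.123%, exact 95% interval 0.0150% to 0.445%) and 11 members (0.679%, 0.339% to 1.21%) had a peak, against 0.233% and 1.74% of all 6424 MORC7 regions. Intervals here and below are exact (Clopper-Pearson) over regions of a single library and cover counting error only.

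**Figure D1:**
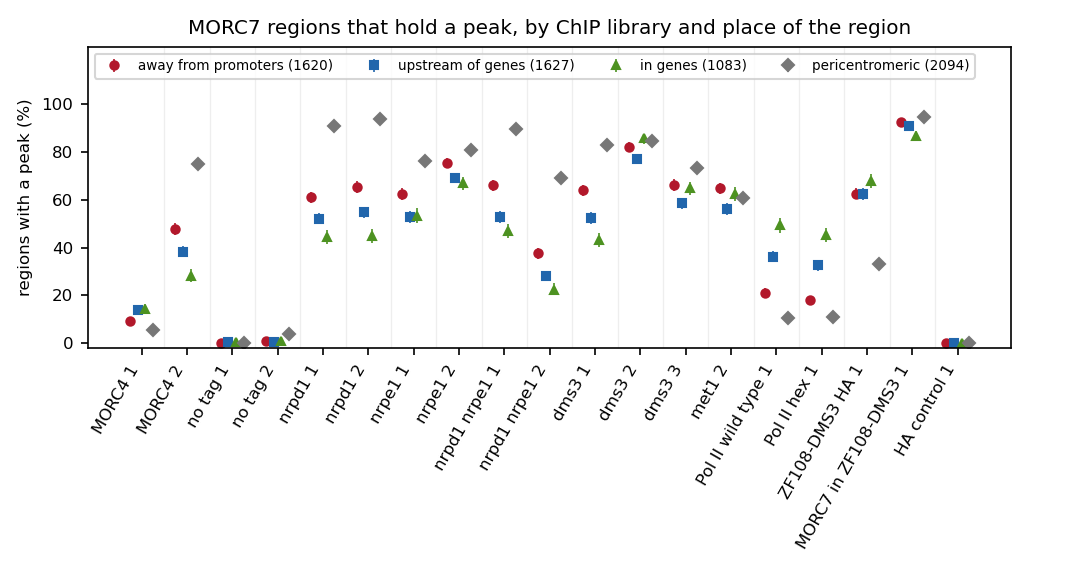
Share of MORC7 regions (%, vertical axis) that held a peak in each ChIP-seq library (horizontal axis, library and replicate), for the 1620 members away from promoters and the 3 other sets; bars are exact 95% intervals over regions. The members lie above the upstream regions in every RdDM mutant library and near 0 without a tag.

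MORC7 peaks were found at most members in 8 of the 9 libraries in which Pol IV, Pol V or DMS3 was mutated. In nrpd1, 989 members (61.0%) in replicate 1 and 1059 (65.4%) in replicate 2 held a MORC7 peak, beside 65.8% and 68.5% of all MORC7 regions. In nrpe1 the counts were 1011 (62.4%) and 1225 (75.6%), beside 63% and 74.3% of all. In the double mutant they were 1070 (66.0%) and 608 (37.5%), beside 67.1% and 42.9%, and in dms3 1038 (64.1%), 1333 (82.3%) and 1073 (66.2%), beside 63.7%, 82.4% and 66.4%. In each of these 9 libraries the members' share thus lay close to that over all regions, and double mutant replicate 2 stood below the rest.

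A library that helped to choose the regions cannot be set against one that did not, so each wild-type library was scored on regions chosen from the other 2 lists, and each mutant library on the mean over the same 3 sets. On this scale the wild-type libraries recovered 96.4% (replicate 1), 53.5% (replicate 2) and 72.8% (replicate 3) of the members, on average 74.2% ± 21.5 (SD, n = 3). The 9 RdDM mutant libraries recovered 73.1% ± 13.2 (SD, n = 9), from 42.8% in nrpd1 nrpe1 replicate 2 to 89.3% in dms3 replicate 2, and all of them lay inside the range of wild type but that lowest one. The difference was −1.11 percentage points (exact permutation test over libraries, two-sided, p = 0.918). The test did not pair values by set, and each wild-type value came from its own set, so the wild-type spread includes differences between sets. On the set of 746 regions scored in replicate 1, all mutants lay below the 96.4% of wild type, at 47.6% to 93.0%. On the 1329 regions scored in replicate 2 they ran from 45.4% to 83.4%, with only nrpd1 nrpe1 replicate 2 below 53.5%. The mean joins both directions and does not show equal recovery. Taken singly, nrpd1 differed from wild type by −4.95 points (exact permutation p = 0.7), nrpe1 by 5.89 (p = 0.7), nrpd1 nrpe1 by −14.8 (p = 0.5) and dms3 by 5.89 (p = 0.7), with a Benjamini-Hochberg adjusted p of 0.875 for each. Without double mutant replicate 2 the difference turned to 1.83 for the double mutant and to 2.68 for all RdDM mutants, and leaving out a wild-type library also turned the sign for nrpd1, nrpe1, dms3 and all mutants. With 2 or 3 libraries against 3, an exact p cannot fall below 0.1, and the spread in wild type is wide, so a loss smaller than it would not be seen.

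Within the date group shared by wild-type replicate 3, the comparison gave other values. Of the 979 members set by wild-type replicates 1 and 2, wild-type replicate 3 held a peak at 72.8%, nrpd1 at 54.2% and 57.3%, and nrpd1 nrpe1 replicate 1 at 64.5%. These mutant libraries were all lower, but the group has 1 wild-type library, so no test is possible. Mutant libraries outside that date group ran from 35.4% in nrpd1 nrpe1 replicate 2 to 91.3% in dms3 replicate 2 on the same 979 regions.

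Members kept a peak in RdDM mutants more often than arm regions near genes, and less often than regions around the centromeres. The share with a MORC7 peak was higher than upstream of genes in 9 of 9 RdDM mutant libraries, by 9.20 percentage points ± 2.58 (SD, n = 9), from 5.03 to 13.4 (exact sign-flip permutation test over libraries, two-sided, p = 0.0039, the smallest that 9 libraries can give, adjusted p = 0.0059). It was higher than in genes in 8 of 9, by 12.0 points ± 8.68 (exact permutation p = 0.0117, adjusted p = 0.0117), with dms3 replicate 2 the exception at −3.40. Against the pericentromeric regions it was lower in 9 of 9, with a mean difference of −18.0 points ± 11.2 (exact permutation p = 0.0039, adjusted p = 0.0059). Region width moves with these classes, and among regions of 600 to 1500 bp only, a choice made after the data were seen, with 840 members, the differences were 7.25 points (exact permutation p = 0.0039), 11.1 (p = 0.0156) and −9.65 (p = 0.0508).

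**Figure D2:**
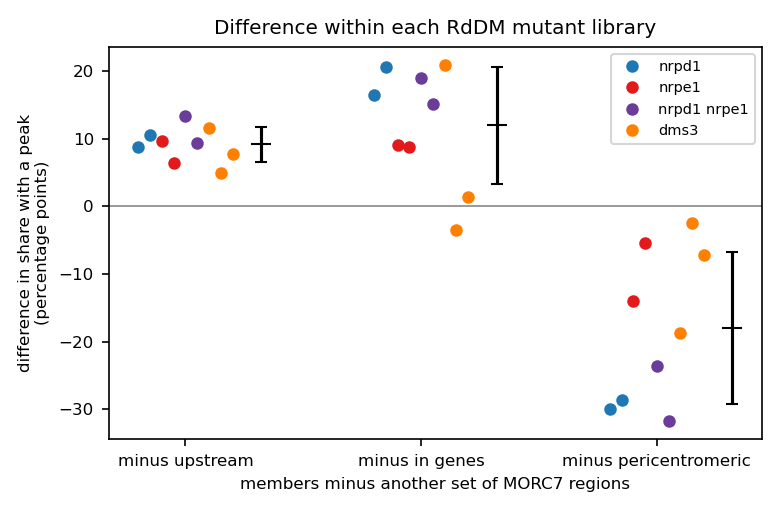
Difference in the share of regions with a MORC7 peak (percentage points, vertical axis), members minus regions upstream of genes, in genes or around the centromeres (horizontal axis), with 1 point for each of the 9 RdDM mutant libraries, coloured by genotype, and the mean with its SD beside them. All points against upstream regions are above 0 and all against pericentromeric regions are below it.

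Wild-type libraries, each on regions set by the other 2 lists, showed these class differences less evenly. Members minus upstream regions gave 3.17 points in replicate 1, −1.18 in replicate 2 and 6.87 in replicate 3, averaging 2.95 ± 4.03 (SD, n = 3), against 7.93 ± 2.24 (SD, n = 9) in the mutants on the same scale. The difference between mutants and wild type was 4.98 points (exact permutation p = 0.0227, adjusted p = 0.0682 over the 3 classes), and so did not pass after adjustment. For genic regions the mutants gave 9.85 points and wild type 1.55 (exact permutation p = 0.136), and for pericentromeric regions −17.1 and −5.21 (exact permutation p = 0.173). The class differences in the mutants were therefore not shown to be absent from wild type.

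Members gathered at the upper end of the scale in the number of RdDM mutant libraries that bound them. A peak in all 9 libraries was found at 520 members (32.1%) and in 8 at 190, while the steps from 1 to 7 libraries held 76 to 142 members each and 119 (7.35%) had none. Of the members with a peak in any 8 of these libraries, between 77.96% (for nrpd1 nrpe1 replicate 2) and 100% had one in the remaining library. The 520 were wide, with a median of 1574.5 bp against 649 bp for the 119, and richer in repeated sequence, with a median of 10.6% of words found more than once and 17.7% of them with none. The 119 had a lower median GC (29.6%) and fewer CG dinucleotides (1.496 per 100 bp) than the 520 (31.3% and 1.89). Wide and strong peaks pass a threshold more easily, and the part of width in these counts was not tested.

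**Figure D3:**
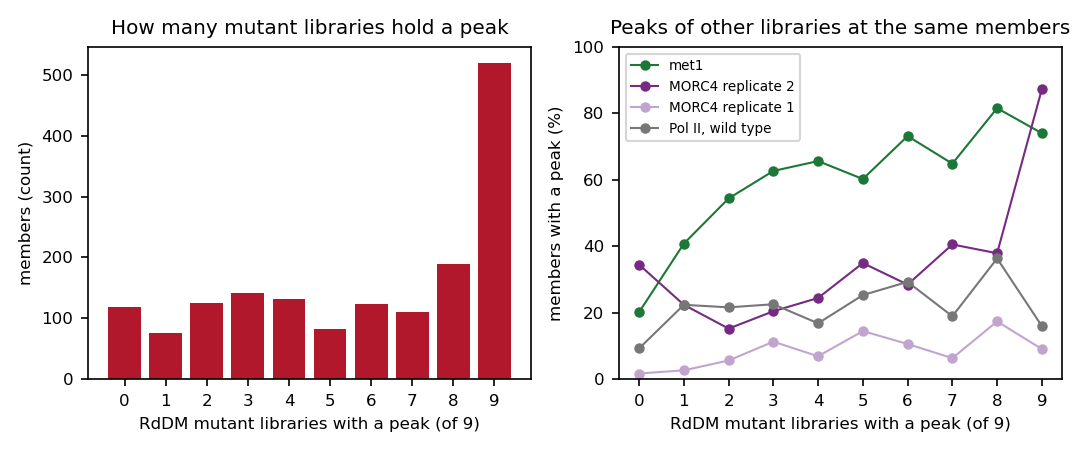
Left, number of members (vertical axis) by how many of the 9 RdDM mutant libraries held a MORC7 peak there (horizontal axis). Right, share of those members (%) with a peak in met1, in MORC4 replicate 1 or 2, or for Pol II in wild type; 520 members are at 9, where MORC4 replicate 2 reaches 87.3%.

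How far the strength of MORC7 binding was ordered alike with and without RdDM depended on the wild-type library. Over members with a peak in both, the fold enrichment of wild-type replicate 3 had a Spearman rho of 0.75 with nrpd1 replicate 1 (n = 986), 0.78 with nrpd1 nrpe1 replicate 1 (n = 1053), 0.77 with dms3 replicate 1 (n = 993) and 0.69 with nrpe1 replicate 1 (n = 928), beside 0.66 with wild-type replicate 1 (n = 1327) and 0.38 with wild-type replicate 2 (n = 736). Wild-type replicate 1 had 0.46 and 0.43 with nrpd1 (n = 978 and 1046), 0.50 and 0.47 with the double mutant (n = 1060 and 605), 0.58 and 0.57 with nrpe1 (n = 998 and 1209) and 0.56, 0.71 and 0.69 with dms3 (n = 1026, 1324 and 1069), and wild-type replicate 2 had 0.27 with nrpd1 replicate 2 (n = 585). The values with nrpd1 and the double mutant were thus above that between wild-type replicates 1 and 3 for replicate 3 and below it for replicate 1, except 0.60 between replicate 3 and double mutant replicate 2 (n = 605). The 2 nrpd1 libraries reached 0.97 (n = 968). The points are regions that share width and sequence, and several of these libraries share a date, so the values are a description. Of the 162 members with the highest mean rank over the 3 wild-type lists, between 95.1% and 100% had a peak in each of the 9 RdDM mutant libraries.

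The 3 members with the highest mean in wild type were R0295 (chr1:22162381-22168833), R0278 (chr1:21469507-21473036) and R0874 (chr3:16697564-16701133). R0874 touches AT3G45525 and AT3G45530 and had a fold enrichment of 6.10, 6.01 and 8.54 in wild-type replicates 1, 2 and 3. The nrpd1 libraries gave 11.5 and 9.69, those of nrpe1 19.8 and 6.57, the double mutant 8.67 and 17.4 and dms3 7.33, 6.46 and 4.95. Values of the mutant libraries thus ran from below the wild-type ones to above them, and replicates of nrpe1 and of the double mutant lay far apart. R0278 and R0295 showed the same spread, with 18.6 and 18.4 in nrpe1 replicate 1 against 6.56 and 5.07 in replicate 2. Fold enrichment is scaled within each library, so these values rank regions in a list and do not compare levels between lists.

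A peak in all 3 wild-type lists and in none of the 9 RdDM mutant libraries was found at 10 members, of which R0921 and R1312 are described. R0921 (chr3:18568996-18569962) had a fold enrichment of 4.23, 2.11 and 5.34 in wild-type replicates 1, 2 and 3 and no deposited peak of any strength in these 9 libraries, and MORC7 in the ZF108-DMS3 plants reached 4.59 there. R1312 (chr5:4641072-4642042) had 3.36, 2.47 and 5.56 in wild type and stayed at or below 1.98 in the mutants. Both also held a peak of MORC4 replicate 2, with 2.31 and 2.42.

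**Figure D4:**
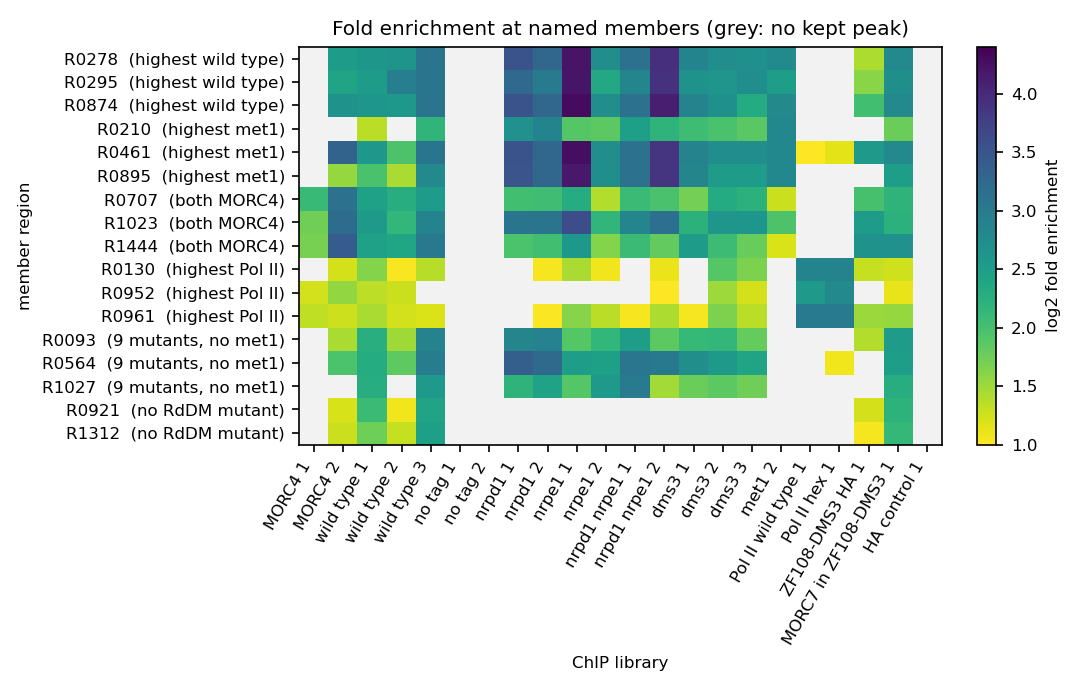
Fold enrichment on a log2 scale (colour) of the kept peak at 17 named members (rows) in each ChIP-seq library (columns), with grey for no kept peak. The rows for R0921 and R1312 are empty in the 9 RdDM mutant libraries, and the rows for R0093, R0564 and R1027 are filled there and empty in met1.

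In met1, which lacks the enzyme that maintains CG methylation, 1050 members (64.8%, exact interval 62.4% to 67.1%) held a MORC7 peak, beside 61% of all MORC7 regions. A single library was used, so the value has no replicate check. The share was 85.5% (606 of 709) among members found in all 3 wild-type lists and 48.7% (444 of 911) among those found in 2. Scored on the sets of 2 lists as above, met1 recovered 84.6%, 65.0% and 79.6% of the members, on the same 3 sets on which wild type recovered 96.4%, 53.5% and 72.8%. The members with and without a met1 peak had nearly the same median CG content (1.8999 and 1.912 per 100 bp) and nearly the same GC (32.2% and 31.4%), while repeated sequence made up 0 and 3.77% of the median member.

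Members without a peak in met1 and members without one in the RdDM mutants were not the same throughout. Of the 520 members with a peak in all 9 RdDM mutant libraries 385 (74.0%) also had one in met1, and of the 119 with none 24 (20.2%) did. The other 135 of the 520 had no kept met1 peak, and 68 of these had no deposited met1 peak of any strength. The 3 with the highest wild-type mean among the 68, chosen after the data were seen, were R0564, R1027 and R0093. R0564 (chr2:10776137-10777186), which touches AT2G25310, had a fold enrichment of 4.90, 3.58 and 7.81 in wild type and between 5.34 (dms3 replicate 3) and 10.4 (nrpd1 replicate 1) in the RdDM mutants. R0093 (chr1:6720470-6721812), over the pseudogenes AT1G19415 and AT1G19420, had 4.82, 2.80 and 7.38 in wild type and 3.49 to 7.40 in the RdDM mutants. R1027 (chr4:661256-662870) overlaps the end of AT4G01525, annotated as SADHU5-1 of the Sadhu family of non-coding retrotransposons, and had 4.88 and 5.92 in wild-type replicates 1 and 3 and 2.77 to 8.01 in the RdDM mutants.

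The highest met1 values were at members that also held a MORC7 peak in every RdDM mutant library. R0461 (chr2:6735858-6740997) reached 7.03 in met1, 5.99, 3.88 and 8.44 in wild type and 9.96 in MORC4 replicate 2. R0895 (chr3:17417304-17419448), which holds the microRNA gene MIR5645a, and R0210 (chr1:11901023-11902204), which holds MIR2933a, both reached 7.02 in met1. In wild type R0895 had 3.92, 2.71 and 6.93, and R0210 had 2.55 and 4.52 in replicates 1 and 3 and no peak in replicate 2. Both microRNA genes thus lie in members that are among the 3 highest in met1. R0895 was not among the 3 highest in wild type. R0210 could not be, since those were chosen among members with a peak in all 3 wild-type lists. RNA of either gene was not analysed here.

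MORC4, a close relative of MORC7, met the members in ways that differed between its libraries. MORC4 replicate 1 held a peak at 148 members (9.14%, exact interval 7.78% to 10.6%), beside 10.1% of all MORC7 regions, and replicate 2 at 773 (47.7%, 45.3% to 50.2%), beside 50.9%. Both held one at 65 members, replicate 1 alone at 83 and replicate 2 alone at 708. Of the 83 members, 68.7% held a wild-type Pol II peak and 7.23% a MORC7 peak in all 9 RdDM mutant libraries. Of the 708 members, 13.0% held a Pol II peak and 58.3% a MORC7 peak in all 9. Fold enrichment of MORC4 replicate 2 had a Spearman rho of 0.48 with wild-type MORC7 replicate 3 (n = 769), and that of MORC4 replicate 1 had 0.05 (n = 127).

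Members with a peak of MORC4 replicate 2 held more repeated sequence than the others. Words found more than once in the genome made up a median of 10.9% of these 773 members and 0 of the other 847, and 15.5% and 71.8% held none. GC (31.5% and 32.3%) and CG content (1.89 and 1.92 per 100 bp) lay close together. MORC4 replicate 2 shares its date with 1 library without a tag and with nrpd1 nrpe1 replicate 2, and the part of this in the pattern was not tested. The library without a tag of that date had a peak at 11 members.

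The 3 members highest in both MORC4 libraries all held a MORC7 peak in every RdDM mutant library. R1444 (chr5:16680424-16683225), which touches AT5G41720, had a fold enrichment of 3.24 and 10.6 in MORC4 replicates 1 and 2, and 5.47, 5.23 and 8.11 for MORC7 in wild type. R1023 (chr4:629994-632263), over the pseudogene AT4G01490, had 3.33 and 9.20 for MORC4 and 5.98, 4.43 and 7.36 for MORC7. R0707 (chr3:985265-987291) had 4.29 and 8.73 for MORC4 and 5.50, 4.85 and 5.79 for MORC7, and it reaches AT3G03855, a pseudogene of a disease resistance protein of the TIR-NBS-LRR class. Their met1 values were 2.29, 3.85 and 2.41, beside a median of 2.94 over the members with a met1 peak.

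Pol II was found at a smaller share of members than of regions upstream of genes or in them. In wild type 339 members (20.9%, exact interval 19.0% to 23.0%) held a Pol II peak, beside 26.2% of all MORC7 regions, and in hex 291 (18.0%, 16.1% to 19.9%), beside 24% of all. Upstream of genes 36.3% held one in wild type, in genes 49.3% and around the centromeres 10.5%. The members with Pol II lay nearer to genes, since 173 of 339 (51.0%) touched a coding gene against 235 of 1281 (18.3%) of the others, with a median distance of 690 bp against 1368 bp. Their nearest gene turned its 3′ end to them in 72.0% of cases against 53.1%. A Pol II peak at the edge of a member can be that of the gene beside it, and 166 members with Pol II (13.7% of the 1212 that touch no coding gene) touched none.

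MORC4 replicate 1 was more frequent at members with Pol II than at the others, and MORC4 replicate 2 less frequent. Replicate 1 held a peak at 94 of 339 members with Pol II (27.7%) and at 54 of 1281 without (4.22%), and replicate 2 at 38.1% and 50.3%. The list of MORC4 replicate 1 has the same date as both Pol II lists, and its part was not tested. MORC7 in met1 (73.2% and 62.6%) and HA of ZF108-DMS3 (75.5% and 59.2%) were also more frequent at the members with Pol II, while the median number of RdDM mutant libraries with a MORC7 peak was 7 in both sets. These shares compare regions of single libraries and no test over samples was possible.

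The highest Pol II values were at genes of non-coding RNAs. R0961 (chr3:21004414-21004855), over the U2.6 gene of the spliceosomal U2 RNA, had a Pol II fold enrichment of 7.96 in wild type and 8.07 in hex, and 2.70, 2.36 and 2.28 for MORC7 in wild type. R0130 (chr1:8524902-8525343), over AT1G05853, annotated as U5.5, had 7.27 and 7.35 for Pol II and 3.08, 2.05 and 2.58 for MORC7. R0952 (chr3:20642791-20643158), over the uncharacterised RNA gene AT3G08565, had 5.95 and 6.94 for Pol II and a MORC7 peak of 2.54 and 2.41 in wild-type replicates 1 and 2. The members' medians for MORC7 were 2.73 in wild-type replicate 1 and 3.48 in replicate 3, and the values of these regions lay below them, except that of R0130 in replicate 1. None of the 3 held a kept met1 peak, though R0130 and R0961 had deposited ones below the threshold, of 1.81 and 1.94. Genes of spliceosomal RNAs have near-identical copies, and 28.6% of the words of R0961 and 15.3% of those of R0130 occur elsewhere in the genome.

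Pol II in hex was near that in wild type at most members that had it. At the 240 members with a peak in both libraries the ratio of hex to wild-type fold enrichment had a median of 0.980 with quartiles of 0.905 and 1.08, was above 1 at 108 of them, and the values had a Spearman rho of 0.77 (n = 240 regions). A further 99 members had a kept peak in wild type alone, 45 of them with no deposited hex peak of any strength, and 51 in hex alone, 22 of them with no deposited wild-type peak. The highest of the 51 was R1532 with 4.41, followed by R0907 (chr3:18068906-18071027) with 3.48. There is 1 library for each genotype, and the hex label could not be checked.

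The zinc finger fusion ZF108-DMS3 was found at 1014 members (62.6%, exact interval 60.2% to 65.0%), beside 53.9% of all MORC7 regions, and the HA control at 1 (0.0617%, beside 0.0934%). Its peaks covered 18.0% of all arm sequence away from genes and promoters, more than those of any other library. Upstream of genes it was found at 62.5%, in genes at 67.9% and around the centromeres at 33.2%. The fold enrichment of the fusion had a Spearman rho of 0.01 with wild-type MORC7 replicate 1 (n = 994) and −0.10 with replicate 3 (n = 793), over members with both peaks. The fusion was found at 49.8% of the 520 members with MORC7 in all RdDM mutant libraries, below its share of all members. Among the 709 members in all 3 wild-type lists it was found at 75.5%, above that share. Members with the fusion had a median of 0 repeated words and those without it 9.05%. MORC7 in the same plants held a peak at 1503 members (92.8%), beside 91.8% of all.

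An end of an assembled chromosome was reached by 5 members, which were picked after the data were seen. R0001 runs over the first 1293 bases of chromosome 1, and its first 120 bases (chr1:1-120, forward strand) are shown with the telomere repeat CCCTAAA in capitals.
R0001: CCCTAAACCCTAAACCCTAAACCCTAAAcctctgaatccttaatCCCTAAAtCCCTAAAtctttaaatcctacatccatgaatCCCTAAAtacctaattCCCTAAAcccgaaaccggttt
R0001 had a MORC7 fold enrichment of 4.24 and 4.59 in wild-type replicates 1 and 3, between 3.89 and 5.71 in the 9 RdDM mutant libraries and no kept peak in met1. R0703 and R1248 at the starts of chromosomes 3 and 5 and R1620 at the end of chromosome 5 also held a peak in all 9, and R0434 at the end of chromosome 1 in 8. Searched as CCCTAAA or TTTAGGG on the forward strand, which covers both strands, the repeat occurred 8 times in R0001, 10 in R0703, 6 in R1620, 5 in R0434 and once in R1248. At least 3 copies were found in 18 members (1.11%), in 1.53% of all MORC7 regions and in 0.104% of arm windows away from promoters without a MORC7 region. These are matches of letters and say nothing of what binds there.

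Transcripts at the members were followed in RNA-seq of libraries labelled wild type, nrpe1 and hex, as TPM (transcript abundance scaled to the same total in each library). The mutated genes went against the labels. MORC1 ran from 7.42 to 8.08 TPM in wild type, from 1.77 to 2.06 under the label nrpe1 and from 7.70 to 9.17 under the label hex, and MORC2, MORC6 and MORC7 were likewise lower in the libraries labelled nrpe1, while MORC4, also mutated in hex, was higher there, with 12.4 to 13.8 TPM against 4.4 to 5.68 in wild type and 5.3 to 5.77 under the label hex. NRPE1 ran from 1.27 to 1.74 TPM in wild type, from 1.08 to 1.73 under the label nrpe1 and from 0.5 to 0.62 under the label hex. Groups are therefore named by their labels, and directions below belong to the libraries so labelled, not to a mutant. Of the floral genes, AP1, AP3 and PI stayed at or below 0.39 TPM in all 9 libraries and SEP3 at or below 1.33. AG ran from 0.98 to 2.11 TPM. The labelled floral tissue is thus not seen in AP1, AP3 and PI, while AG was present at a low level. For the RNA-seq plants the methods of the study name a younger age than the labels. More or less transcript per cell and more or fewer cells that make it cannot be told apart in bulk tissue.

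Few genes at the members differed from wild type in the libraries labelled hex. Of 998 annotated genes that overlap a member, 718 are in the TPM table and 354 passed the filter of at least 1 TPM in at least 3 libraries. Of these 354, 3 were higher and 1 lower (limma on log2(TPM + 1), at least 2-fold, Benjamini-Hochberg adjusted over all 17459 genes tested), beside 0.235% higher and 0.0859% lower over all genes, and their median difference was 0.03 on the log2 scale beside 0.02 over all. Of 655 coding genes with a member within 1 kb of their 3′ end, 435 were tested, with 1 higher and 1 lower. The counts are too small to set these shares apart from the background.

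AT1G67105, a non-coding RNA gene at R0335 (chr1:25056819-25057795), stood at 0.13, 0.1 and 0.22 TPM in wild type, 70.3, 31.6 and 159 under the label hex, and 0.22, 0.42 and 1.24 under the label nrpe1. The libraries labelled hex did not overlap the others, and the difference was 5.97 ± 0.48 (SE) on the log2(TPM + 1) scale (limma, adjusted p = 0.00045). AT2G16310, a pseudogene of an endoplasmic reticulum retrieval protein at R0476, had 0, 0 and 0.09 TPM in wild type and 0 throughout under the label nrpe1, against 3.44, 5.07 and 4.5 under the label hex (limma, 2.36 ± 0.15, adjusted p = 8.4e-05). AT3G47240, a pseudogene at R0893, had 1.49, 1.05 and 1.1 TPM in wild type and is listed at 0 in all 3 libraries labelled hex (limma, −1.14 ± 0.14, adjusted p = 0.0083). Without wild-type replicate 1 or any 1 of the libraries labelled hex that call was lost, with an adjusted p of up to 0.0744. AT2G16310 reached 1 TPM only in the libraries labelled hex, and without any 1 of these it did not pass the filter. It could thus enter the test only by being higher there, which limits what its adjusted p shows. GBF6, the transcription factor bZIP11 of sugar signalling, has the member R1207 at its 3′ end and fell from 2.90, 3.23 and 3.22 TPM to 0.76, 0.5 and 0.6 under the label hex (limma, −1.35 ± 0.15, adjusted p = 0.0035).

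AT5G52070, which encodes an Agenet domain protein, differed in both comparisons. Wild type had 4.33, 5.19 and 5.08 TPM, the libraries labelled nrpe1 26.1, 22.1 and 18.7, and the libraries labelled hex 25.3, 23.0 and 17.8. Both groups stood wholly above wild type and overlapped each other, with differences of 1.98 ± 0.15 (adjusted p = 0.0003) and 1.96 ± 0.15 (adjusted p = 0.00035) on the log2(TPM + 1) scale by limma. The member at its 3′ end is R1532 (chr5:21164507-21166804), whose MORC7 fold enrichment was 4.37, 2.99 and 5.41 in wild type, 3.57 to 7.35 in the 9 RdDM mutant libraries and 3.86 in met1. It is the member with the highest Pol II peak found in hex alone, 4.41, with no kept Pol II peak in wild type.

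More genes differed in the libraries labelled nrpe1. Of the 354 genes that overlap a member 13 were higher and 7 lower, beside 2.31% higher and 1.63% lower over all genes, and of the 435 genes with a member at their 3′ end 14 were higher and 5 lower. By kind, 6 of 305 coding genes, 5 of 24 pseudogenes (20.8%) and 2 of 25 non-coding RNA genes were higher, against 15% of all 200 pseudogenes and 6.64% of all 271 non-coding RNA genes tested. The median difference of the overlapping genes was 0.08, the same as over all genes. With quantile normalization the split was 11 higher and 8 lower for overlapping genes and 8 higher and 6 lower for genes at 3′ ends. Over all genes 606 were called with that normalization. Most of the 688 calls over all genes were lost when any 1 of several libraries was left out. They went to 55, 48 and 83 without wild-type replicate 1, 2 or 3, and to 32 and 38 without replicate 2 or 3 labelled nrpe1. Without replicate 1 or 2 labelled hex they went to 89 and 81. They went to 1606 without replicate 1 labelled nrpe1 and to 769 without replicate 3 labelled hex. At overlapping genes 5 of the 20 calls, and at 3′ ends 2 of the 19, passed in each of the 9 cases.

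Among genes that overlap a member, the largest rises in the libraries labelled nrpe1 were at pseudogenes and non-coding RNA genes. Over all genes tested, 15% of pseudogenes and 6.64% of non-coding RNA genes were higher in these libraries, against 2.31% of all genes. A difference between genes at members and all genes of these kinds was not tested. AT2G15810, a pseudogene at R0467, went from 0.45, 0.29 and 0.34 TPM in wild type to 11.03, 15.03 and 8.79 in these libraries (limma, 3.19 ± 0.17, adjusted p = 2.0e-05). R0467 had a MORC7 peak in 2 of the 9 RdDM mutant libraries and its highest value, 4.69, in met1. AT4G01980, a pseudogene inside R1034, rose from 0.06, 0 and 0.1 TPM to 7.93, 7.51 and 8.9 (limma, 3.11 ± 0.16, adjusted p = 1.9e-05). R1034 held MORC7 in all 9, between 4.37 and 12.2. AT1G25430, a pseudogene with R0143 and R0144 at its ends, rose from 3.13, 1.66 and 2.45 TPM to 12.03, 15.8 and 23.04 (limma, 2.37 ± 0.24, adjusted p = 0.0020), and the RNA gene AT1G26558 at R0148 from 1.23, 1.78 and 2.01 to 7.84, 13.7 and 11.1 (2.13 ± 0.20, adjusted p = 0.0014). The RNA gene AT5G38005 at R1403 went from 1.2, 1.57 and 1.1 TPM to 15.08, 5.21 and 8.61 (limma, 2.11 ± 0.29, adjusted p = 0.0144), a call that was lost without any 1 wild-type library or replicate 3 labelled nrpe1. AT2G15810 and AT4G01980 reached 1 TPM only in the libraries labelled nrpe1, and without any 1 of these they did not pass the filter. They could thus enter the test only by being higher in these libraries, which limits what their adjusted p-values show. None of these 5 genes passed the test in the libraries labelled hex, and the difference between both comparisons was not tested.

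At 3′ ends the largest differences in the libraries labelled nrpe1 beside AT5G52070 were at AT1G29965, of a ribosomal protein L18ae family, and CRK4, a cysteine-rich receptor-like kinase of defence. AT1G29965 (member R0172) had 17.9, 21.5 and 16.5 TPM in wild type against 6.39, 1.19 and 1.35 in these libraries (limma, −2.54 ± 0.55, adjusted p = 0.0376). CRK4 (member R0878) had 11.6, 4.99 and 5.93 TPM in wild type against 14.7, 33.9 and 46.8 (limma, 1.88 ± 0.51, adjusted p = 0.0400). Both calls were lost in 7 of the 9 cases that leave out 1 library, all but those without replicate 1 labelled nrpe1 or replicate 3 labelled hex, with adjusted p of up to 0.133. MORC6 itself overlaps the member R0089 and is among the 7 lower genes, with 3.2 TPM ± 0.0436 (SD, n = 3) in wild type and 0.817 ± 0.259 under the label nrpe1 (limma adjusted p = 0.0053).

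**Figure D5:**
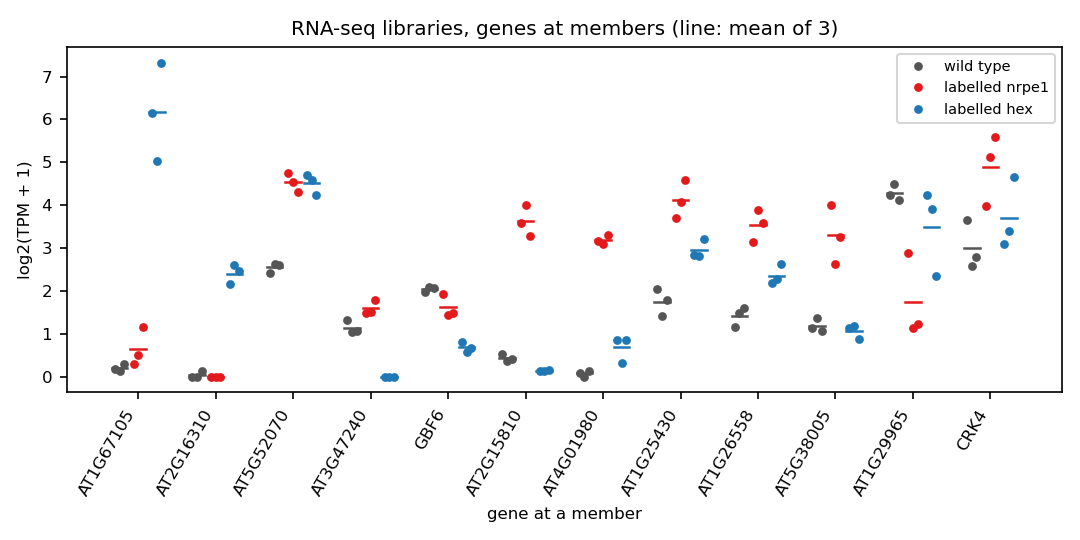
Level of 12 named genes at members as log2(TPM + 1) (vertical axis) in each RNA-seq library, 3 points per labelled group with a line at their mean. AT1G67105 is highest in the libraries labelled hex, AT2G15810 and AT4G01980 are highest in those labelled nrpe1, and AT5G52070 is above wild type in both.

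Of 5 loci often used to follow silencing in this field, FWA, SDC, SUPERMAN and ROS1 had no member within 2 kb and AT4G26360 had 1. This pseudogene holds the midpoint of R1166 (chr4:13331365-13332934), which had a MORC7 fold enrichment of 5.34, 3.17 and 5.61 in wild type, 3.95 to 7.99 in the 9 RdDM mutant libraries and 2.098 in met1. Pol II reached 4.15 in wild type and 4.57 in hex there, while the pseudogene is listed at 0 TPM in all 9 RNA-seq libraries.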

How the data were processed

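Per the labels and the methods of the study, ChIP-seq reads of 50 bases were aligned to TAIR10 with Bowtie2 2.1.0 (unique, perfect matches), duplicates were removed with SAMtools 1.9, and the authors called peaks with MACS2 2.1.1. The control of each call is not given in the sources used here. The deposited narrowPeak lists, 1 per library, give a fold enrichment over background and a −log10 q value for each peak, as the authors' MACS2 run wrote them. The authors estimated expression as TPM (their processing notes name RSEM 1.3.1) and deposited 1 table per library, of which that of nrpe1 replicate 2 holds the whole table once more (33602 repeated rows, 0 of them different), and each gene was used once. The RNA-seq kit was a stranded one, and the use of the strand in making these TPM tables is not given in the sources used here, so values of genes that overlap on opposite strands are uncertain. Of 47 samples, 31 had a file used here (22 ChIP-seq, 9 RNA-seq) and 16 were not analysed here. No column of values was left unmapped (0).

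Peaks with −log10 q above 2 and fold enrichment above 2 were kept, repeated entries were collapsed, and any overlap of at least 1 base counted as a peak at a region. Positions and sequences come from RefSeq TAIR10.1, on whose chromosomes every peak of the lists fits. The members and all gene lists were chosen with earlier results of these data known. Libraries were compared with exact permutation tests that ran through every arrangement, and exact intervals came from SciPy 1.17.1. Genes were compared with limma 3.58.1 (R 4.3.3) on log2(TPM + 1) over all 9 libraries in 1 fit, for genes that reached 1 TPM in 3 libraries or more. A call needed an adjusted p (Benjamini-Hochberg) under 0.05 and a change of at least 2-fold. A fold change on this scale understates the change of low genes. Other steps used Python 3.11.15, NumPy 2.4.6, pandas 2.3.3 and Matplotlib 3.10.9. The limma fit and the code that merges and overlaps peaks were checked on simulated data. Sequencing depth is unknown for both kinds of file, since neither holds reads.

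Named members are the 3 with the highest mean wild-type fold enrichment among those in all 3 lists, the 3 highest in met1, the 3 highest for wild-type Pol II among those with a peak in both Pol II libraries, the 3 highest in mean over both MORC4 libraries, and the 3 highest in wild type of those in all wild-type lists and no RdDM mutant library, of which 1 is not reported here. Named genes are the called genes with the largest log2 difference, up to 6 per comparison among genes that overlap a member and up to 3 among coding genes with a member within 1 kb of their 3′ end, and any of 5 known loci with a member within 2 kb. Alternatives were a stricter and a looser peak threshold, the 2000 strongest peaks of each list, other overlaps, other definitions of the members, each library left out, other pseudocounts, filters, fold minimums and scalings, and the replicate number as a block.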

Additional observations from a re-analysis of the deposited data

How the results depend on the processing

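Of 303 alternative values for 20 results, 212 were counted as unchanged. Differences had to keep their direction and side of the threshold, and shares had to stay inside the exact interval over regions. Counts of called genes had to stay within a fixed factor of the main count. None of 80 recovery differences between mutants and wild type had an adjusted p below 0.05 (exact permutation tests, lowest p 0.333), and 11 turned in sign. Under q below 0.001 and fold above 3 the difference was 4.06 points for all RdDM mutants and 5.21 for nrpd1, and with the 2000 strongest peaks it was −0.166 for dms3. Without wild-type replicate 1 it was 6.36 for all mutants and 2.70 for nrpd1, without replicate 2 −1.13 for nrpe1 and −2.52 for dms3, without replicate 3 1.42 and 1.11 for all mutants and nrpd1, and without replicate 2 of the double mutant 2.68 for all mutants and 1.83 for the double mutant. Leaving out 1 library at a time gave −11.1 to 6.36 for all mutants, −18.6 to 2.70 for nrpd1, −1.13 to 12.6 for nrpe1, −31.4 to 1.83 for the double mutant and −2.52 to 13.64 for dms3. A set with a peak in all 3 wild-type lists gives no recovery value, since no list is then independent. The class differences ran from 6.96 to 9.73 (upstream), 8.11 to 13.9 (genic) and −26.8 to −11.1 points (pericentromeric) without 1 library, and of their 69 alternative values 68 kept their call, the exception being −9.65 (exact permutation p = 0.0508) for pericentromeric regions of 600 to 1500 bp, an alternative added after seeing the data. Without dms3 replicates 2 and 3, also added then, they were 10.01, 15.7 and −21.7. The cause of these shifts was not tested.

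Shares of members with a peak followed the threshold. Under q below 0.001 and fold above 3 (543 members) they were 3.87% and 42.2% for MORC4 replicates 1 and 2, 0% and 0.184% without a tag, 57.3% for met1, 4.604% and 4.24% for Pol II in wild type and hex, and 38.3% for ZF108-DMS3. With all deposited peaks they were 42.4% for MORC4 replicate 2, 1.40% for replicate 1 without a tag, 73.97% for met1, 27.6% and 23.8% for Pol II and 68.9% for ZF108-DMS3, and with 2000 peaks 20.99%, 24.8%, 4.14% and 4.14%, and 15.5% for MORC4 replicate 2, met1, Pol II and ZF108-DMS3. An overlap of 50% gave 18.6% and 14.9% for Pol II and 59.4% for ZF108-DMS3. Members in all 3 lists gave 16.6% and 54.3% for MORC4, 85.5% for met1, 29.5% and 25.8% for Pol II and 75.5% for ZF108-DMS3. The 932 members wholly outside genes and promoters gave 7.19% and 39.4% for MORC4 and 14.8% and 10.5% for Pol II. A 2 kb promoter gave 67.4% for met1, and a 5 Mb pericentromere 41.5% for MORC4 replicate 2, 0% for replicate 1 without a tag, 23.4% for Pol II in wild type and 66.3% for ZF108-DMS3. Without 1 wild-type list the ranges were 9.26% to 16.1% and 37.4% to 57.6% for MORC4, 65.0% to 84.6% for met1, 20.0% to 29.1% and 17.9% to 25.3% for Pol II in wild type and hex, 58.3% to 76.4% for ZF108-DMS3, and 0% to 0.204% and 0.134% to 0.828% without a tag.

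For RNA, the calls under the label nrpe1 (20 at overlapping genes, 19 at 3′ ends) were 7 and 2 with no filter, 8 and 3 in a fit of the 6 libraries compared, 81 and 98 with no minimum fold, and 5 to 38 and 2 to 45 without 1 library. Over all genes the calls were 688 in the main fit, 58 of 33602 with no filter and 107 of 17161 in the fit of 6 libraries. With no minimum fold they were 4015 of 17459, and without 1 library 32 to 1606. The counts at members thus fell and rose with those over all genes, and a difference from them was not tested. Under the label hex they were 2 to 6 and 2 to 2 without 1 library. Same-numbered libraries of the groups compared did not deviate together throughout (r from −0.143 to 0.145 with wild type, over 0.1 in 1 of 6 pairs, and 0.596, −0.351 and 0.413 between the libraries labelled nrpe1 and hex), so they share only a number, and with the replicate number as a block the calls were 5 and 2 for hex and 22 and 24 for nrpe1. Over all genes the calls with this block were 62 for hex and 821 for nrpe1. The unknown depth of each list limits every absence of a peak.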

Other observations

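The deposited fold enrichment has a ceiling that several of the strongest members share. In nrpd1 replicate 2, 9 members share exactly the highest fold enrichment found among members, 9.69, and 60 peaks of the whole list share its highest value. The same holds for 9 members in the double mutant replicate 1 (8.67), 9 in dms3 replicate 2, 7 in dms3 replicate 1 and 6 in nrpd1 replicate 1, while nrpe1 replicate 1, the double mutant replicate 2 and both MORC4 lists have 1 member each at their highest value. Above such a ceiling the lists do not rank members, which touches R0874, R0278 and R0461, all at 11.5 and 9.69 in nrpd1. In wild-type replicate 3, 3 members share the highest value among members, R0874 and R0278 with 8.54 among them. In that list 15 peaks share its highest value, and in met1 25 peaks do. R0895 and R0210 tie at 7.02 in met1. The choice of the highest members in wild type and met1 thus rests in part on tied values.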
